A study of Danio rerio with 9 samples.

Results

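The genes described here build and run mitosis: the cyclin-dependent kinase Cdk1 and its cyclins, the mitotic kinases, the spindle checkpoint, the kinetochore, condensin, the spindle motors and the proteins of cytokinesis. They were taken by symbol from the deposited count table with a fixed pattern of gene names, which matched 59 of its 32520 rows. Of these, 58 had enough counts to be tested among 16766 genes, and birc5b had 0 counts in all 9 libraries. The libraries came from microdissected livers of wild-type zebrafish larvae. The larvae received vehicle, 1 mM metronidazole or 10 mM metronidazole for 24 h, with 3 libraries per group. Metronidazole is the prodrug that a bacterial nitroreductase transgene converts into a toxin in cell ablation experiments. These wild-type larvae carried no such transgene by their labels. The comparisons are between dose groups, and the labels do not let any other difference between those groups be told apart from the drug. The labels do not give the larval age, or whether a replicate was one animal, a pool or a clutch, so the p-values measure the spread between these libraries, which may be partly technical.

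In a dividing cell, Cdk1 bound to a cyclin drives entry into mitosis, condensin and topoisomerase II compact the chromosomes, and the kinetochore on each centromere attaches them to spindle microtubules. The spindle checkpoint holds back chromosome separation until all are attached, after which the anaphase promoting complex marks securin and the cyclins for destruction and the midzone proteins guide cytokinesis. Transcripts of most of these genes accumulate late in the cell cycle and are scarce in resting cells, so in liver, where most hepatocytes of the adult are quiescent, they are widely used as a readout of proliferation. In bulk RNA, more dividing cells and more transcript per dividing cell cannot be told apart.

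The libraries held 29993109 to 41300673 counts, and the mitotic genes held few of them: 0 to 176 counts per gene in a vehicle library, with a median of 25. Hepatocyte markers such as fabp10a and tfa summed to 169131 to 178732 counts scaled to equal library totals (CPM) in vehicle, 160212 to 226426 CPM at 1 mM and 160690 to 187334 CPM at 10 mM, as the liver label says. On the second principal component, which held 17.4% of the variance, 1 mM replicate 3 stood apart at -76.8. By the column names, lane 8 held 10 mM replicate 3 and lane 7 held the 8 others. A gene had to reach about 0.269 CPM in 3 libraries to be tested, on library totals before TMM scaling. The CPM printed here use TMM-scaled totals, so a printed value can differ slightly from the one that was filtered. Through that filter 9 members passed only by their 1 mM libraries (ccnb2, pttg1, cenph, cenpk, cenpl, cenpo, cdca5, kif18a and prc1a), and nek2 only by its 10 mM libraries. These 10 were tested because of the group where they were high. The gene birc5a needed its vehicle libraries together with others to pass and did not have to differ, and counts are also given for the other 47.

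Mitotic transcripts were highest at 1 mM, the lower dose. Their summed level was 50.5, 52.4 and 59.4 CPM in the vehicle libraries, 161, 138 and 191 CPM at 1 mM, and 76.8, 65.7 and 94.4 CPM at 10 mM. The 3 groups did not overlap, and the means were 54.1 ± 4.69, 163 ± 26.3 and 78.9 ± 14.5 CPM (SD, n = 3 each), which puts 1 mM 3.02-fold and 10 mM 1.46-fold above vehicle. That vehicle and 10 mM did not overlap rested on nek2 and aurkaip1, a kinase gene and a mitochondrial ribosome gene. Without both, the sums were 46.7, 47.7 and 56.1 CPM in vehicle and 64.8, 55.1 and 86.8 CPM at 10 mM. The lowest 10 mM library then lay just under the highest vehicle library, and the remaining 10 mM libraries stayed above vehicle. At 156, 133 and 182 CPM, 1 mM stayed above both groups. The mean of the 1 mM libraries was the highest of the 3 groups for 55 of the 58 tested members, and that of the 10 mM libraries for 3 (nek2, cenpp and aurkaip1). The single highest library was 1 mM replicate 3 for 36 members, 1 mM replicate 1 for 9, 1 mM replicate 2 for 6 and a 10 mM library for the remaining 7. The shares of all tested genes with these orders were not computed, and 1 mM replicate 3 was the library apart on the second principal component. Of the 58 members, 9 passed the filter only by their 1 mM libraries.

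**Figure D1:**
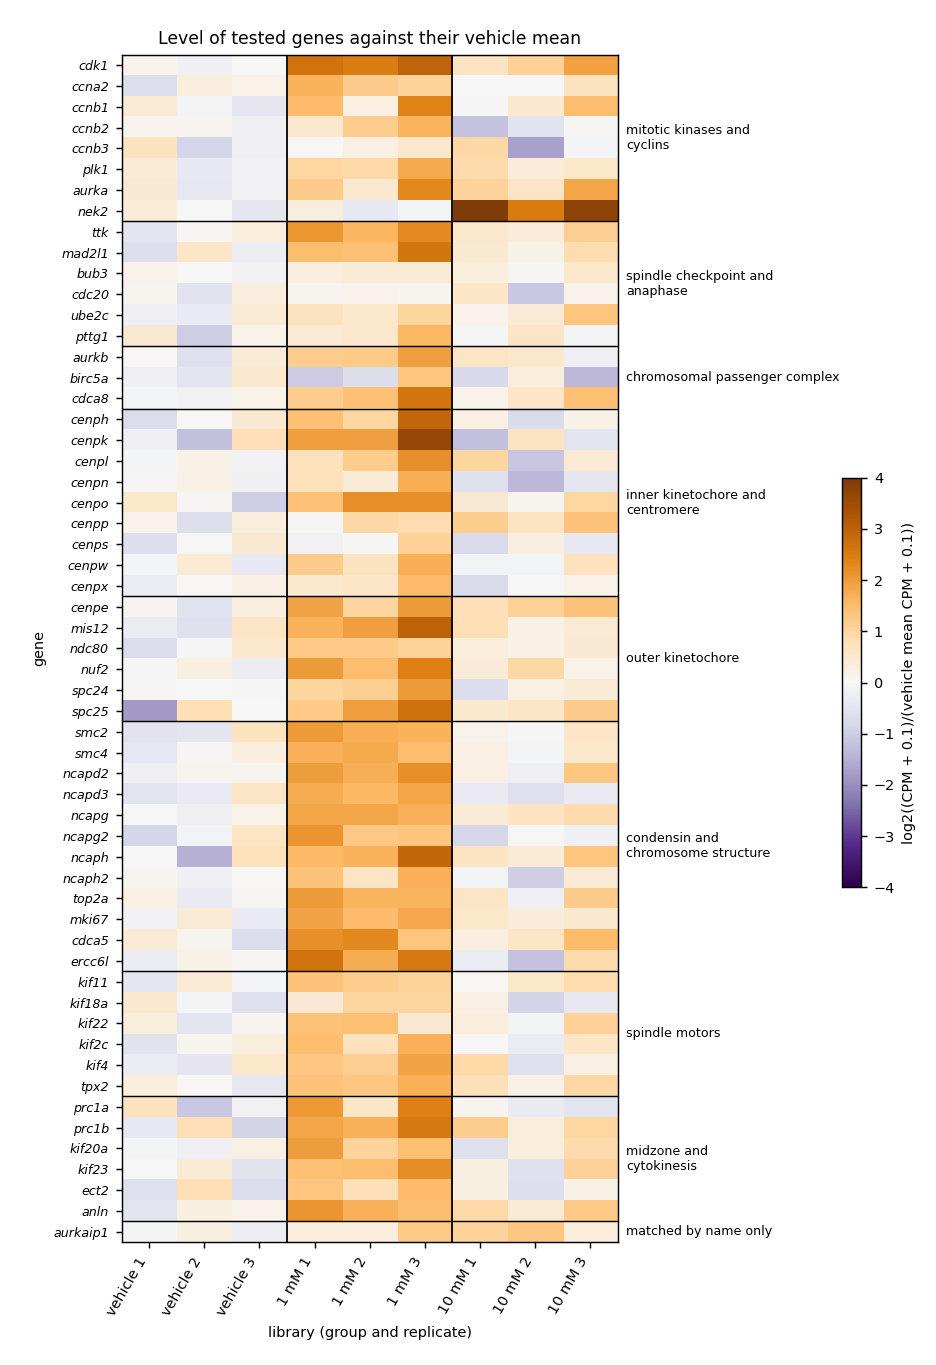
Level of 57 of the tested mitotic genes (rows, grouped by role) in each library (columns), as log2 of CPM plus 0.1 over the gene's vehicle mean plus 0.1, with colours ending at -4 and 4. The 3 columns of 1 mM are orange for most rows, the 10 mM columns are close to vehicle, and nek2 is orange at 10 mM alone.

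At 1 mM against vehicle, 16 of the 58 tested members rose, 27.6% of them, where 0.889% of all tested genes were called higher (edgeR quasi-likelihood test, Benjamini-Hochberg adjusted p under 0.05). All 16 were among the 47 members that did not depend on 1 group to be tested. They were cdk1, ttk, cenpe, mis12, nuf2, smc2, smc4, ncapd2, ncapd3, ncapg, top2a, mki67, ercc6l, tpx2, prc1b and anln. The count of members called lower was 0 in edgeR, with 0 at an unadjusted p under 0.05 and 0 in DESeq2, against 0.0954% of all genes called lower. All 3 libraries of 1 mM lay above all 3 of vehicle for 47 members, 81.0% of those tested, and for 41 of the 47, against 9.66% of all genes. They lay below vehicle for 0 members, against 8.03% of all genes. The median log2 fold change was 1.70 over the members and 0.01 over all genes. A value above 0 was found for 57 of 58 members and for all of the 47, against 50.9% of all genes. How many pass the threshold rests on the vehicle libraries, for the members and for all genes. The count of members was 4 with vehicle replicate 1 left out, 5 with vehicle replicate 2 left out and 8 with vehicle replicate 3 left out. Over all genes, 19, 19 and 47 were called higher in these fits, against 149 with all libraries. The median log2 fold change of the members there was 1.65, 1.66 and 1.84. DESeq2 called 35 members and edgeR without a count filter 32, where 392 and 418 of all genes were called higher. The calls of cdk1, ncapg, mki67 and smc4 held under all 19 alternatives. Those of ercc6l, ncapd2, top2a, nuf2 and anln were lost without any of the vehicle libraries. Those of ttk, ncapd3 and smc2 were lost without vehicle replicate 1 or 2. For anln and smc2 leaving out 1 mM replicate 2 lost the call too.

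At 10 mM against vehicle 5 members rose, 8.62% of those tested, which is close to the 9.74% of all genes called higher. These were cdk1, nek2, cenpp, cenpe and aurkaip1, and 4 of them were among the 47. None was called lower in edgeR, with 0 at an unadjusted p under 0.05 and 0 in DESeq2, while 7.43% of all genes were. All 3 libraries of 10 mM lay above vehicle for 9 members, 15.5%, against 20.2% of all genes, and below vehicle for 1, cenpn, against 20.4% of all genes. The median log2 fold change was 0.46 over the members and -0.03 over all genes. A value above 0 was found for 45 of the 58 tested members, against 47.9% of all genes. Leaving out any of the vehicle libraries, or 10 mM replicate 3, left 2 calls, and leaving out 10 mM replicate 1 left 3. Over all genes, those called higher numbered 1633 with all libraries. They numbered 1169, 1112 and 1084 without vehicle replicate 1, 2 and 3, 1183 without 10 mM replicate 3 and 1139 without 10 mM replicate 1.

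Between the doses the direction was downward. At 10 mM against 1 mM, 26 members fell, 44.8% of those tested against 9.41% of all genes, and 22 of them were among the 47. One rose, nek2, against 9.39% of all genes. All 3 libraries of 10 mM lay below all 3 of 1 mM for 40 members, 69.0%, against 17.1% of all genes. The median log2 fold change was -1.31 over the members and -0.04 over all genes. The count of fallen members was 15 with 1 mM replicate 3 left out, 13 with 10 mM replicate 1 left out and 12 with 10 mM replicate 2 left out. Over all genes, those called lower numbered 1835, 949 and 1207 in these fits, against 1578 with all libraries. The calls of cdk1, nek2, smc2, smc4, ncapd2, ncapd3, ncapg, ncapg2, mki67 and ercc6l, 10 of the 27, held under all alternatives. This comparison and the one of 1 mM with vehicle share the 1 mM libraries, and that of 10 mM with vehicle shares libraries with both. Of all the members, 37 had all 3 of their 1 mM libraries above the other 6 libraries, 63.8% of those tested and 33 of the 47, against 4.57% of all genes.

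**Figure D2:**
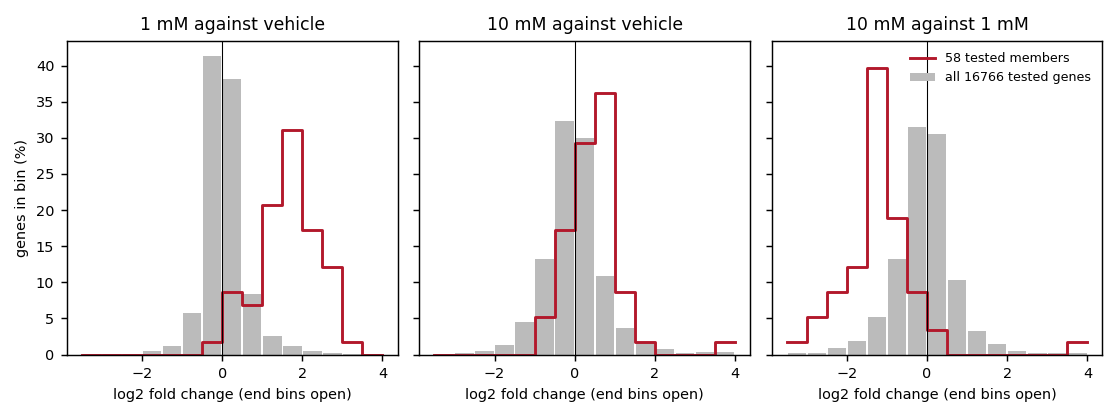
Distribution of log2 fold changes in bins of 0.5 for the 58 tested mitotic genes (red line) and all 16766 tested genes (grey bars), as a percentage of each set, in the 3 comparisons. The red line is displaced to the right at 1 mM (median 1.70), lies slightly to the right at 10 mM (median 0.46) and lies to the left for 10 mM against 1 mM (median -1.31).

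Among the mitotic kinases and cyclins, cdk1 (ENSDARG00000087554) had the largest log2 change of the 16 members called at 1 mM. Its level was 0.602, 0.468 and 0.548 CPM in vehicle, 3.94, 3.45 and 4.82 CPM at 1 mM, and 0.888, 1.24 and 2.30 CPM at 10 mM. The 3 groups did not overlap, with 10 mM between the others and 10 mM replicate 3 the highest of its group. It rose 7.51-fold at 1 mM (log2 2.91, SE 0.36, edgeR adjusted p = 0.0028) and 2.70-fold at 10 mM (log2 1.43, SE 0.36, adjusted p = 0.0161), and it was lower at 10 mM than at 1 mM (log2 -1.47, SE 0.33, adjusted p = 0.00835). The call at 10 mM was lost without vehicle replicate 2, vehicle replicate 3 or 10 mM replicate 3, with an adjusted p of at most 0.0746.

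Cyclins partner Cdk1, and their transcripts gave less certain values. The B-type cyclin gene ccnb2 (ENSDARG00000036180) stood at 0.274, 0.260 and 0.199 CPM in vehicle, 0.397, 0.679 and 0.984 CPM at 1 mM and 0.0494, 0.135 and 0.260 CPM at 10 mM. All 1 mM libraries were above the other 6, and 10 mM overlapped vehicle. The fall from 1 mM to 10 mM passed the test (log2 -2.22, SE 0.69, edgeR adjusted p = 0.0407), and was lost in 11 of 17 alternatives, among them without 1 mM replicate 3 (log2 -1.86). Since ccnb2 passed the filter only by its 1 mM libraries, it had to be high there to be tested. For plk1 (ENSDARG00000058471), a kinase with roles from entry to cytokinesis, the levels were 1.42, 0.781 and 0.946 CPM, then 2.20, 2.07 and 3.87 CPM, then 2.02, 1.37 and 1.59 CPM. The 1 mM libraries were again the highest 3, but the log2 change of 1.36 (SE 0.34) had an adjusted p of 0.0932. The remaining members of this role (ccna2, ccnb1, ccnb3 and aurka) had log2 changes of 0.33 to 1.96 at 1 mM, with no call in any comparison.

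The gene nek2 (ENSDARG00000005619), whose kinase separates the centrosomes at mitotic entry, went against the other members. It had 6, 4 and 2 counts in the vehicle libraries and 6, 2 and 3 at 1 mM, against 165, 40 and 83 at 10 mM. In CPM these were 0.164, 0.104 and 0.0498 in vehicle, 0.159, 0.0566 and 0.0952 at 1 mM, and 4.07, 1.08 and 2.69 at 10 mM. Vehicle and 1 mM overlapped near the lower end of what was counted, and each 10 mM library stood above all 6 of them. Of the 58 members, nek2 alone had this order, against 12.3% of all genes. It rose 24.2-fold over vehicle (log2 4.60, SE 0.63, edgeR adjusted p = 0.000316) and differed by the same log2 4.60 from 1 mM (SE 0.63, adjusted p = 0.000379), while at 1 mM the log2 change was -0.00 (SE 0.83, adjusted p = 0.999). Both calls held under every alternative, and since nek2 passed the filter only by its 10 mM libraries it had to be high there to be tested. The RefSeq annotation of another assembly (GRCz12tu) places lpgat1, an acyltransferase gene, and slc30a1a, a zinc exporter gene, as its nearest protein-coding neighbours. Both also rose at 10 mM, lpgat1 by log2 0.84 (SE 0.12, adjusted p = 0.000447) and slc30a1a by log2 0.96 (SE 0.13, adjusted p = 0.000289). Whether reads from neighbouring genes contribute to the nek2 counts was not tested, and the sources used here do not give the strand setting of the counting.

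**Figure D3:**
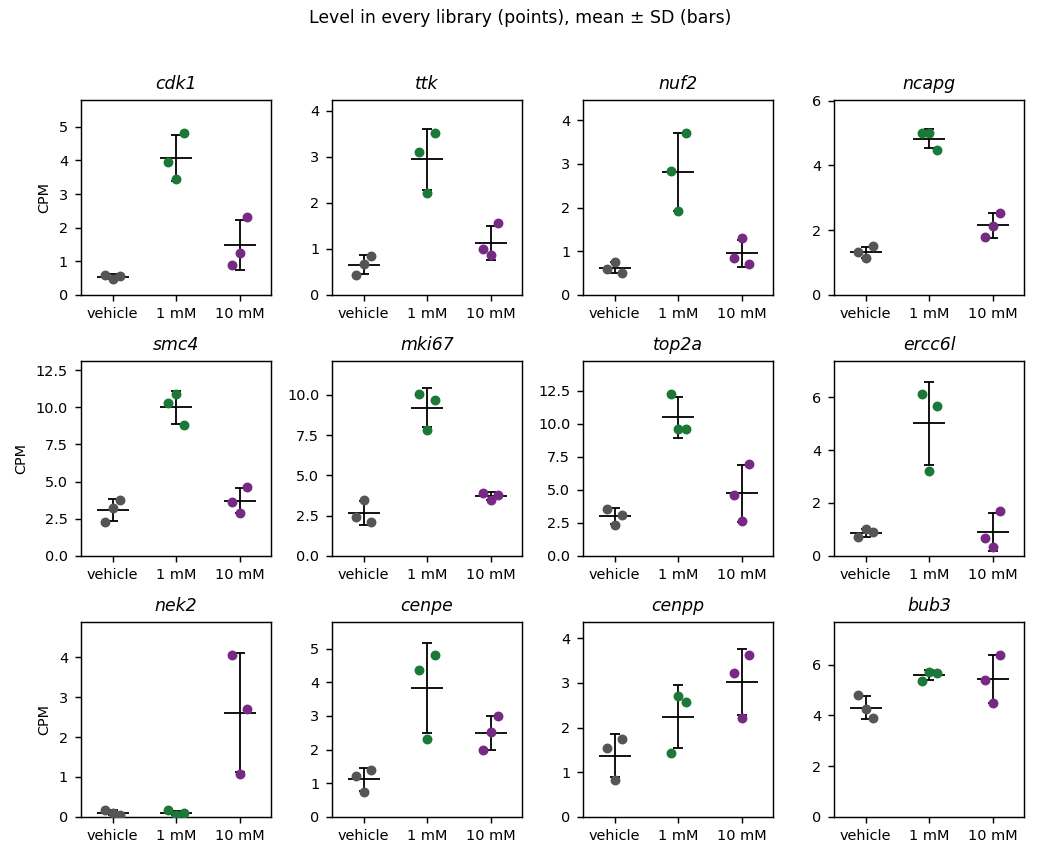
Level in CPM of 12 members in each library (points), with the mean and SD of each group of 3 (bars). The 1 mM libraries are highest for cdk1, ttk, nuf2, ncapg, smc4, mki67, top2a and ercc6l, while nek2 is high at 10 mM alone and bub3 is close to level.

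Of the 6 checkpoint and anaphase genes 1 was called higher at 1 mM, against 0.889% of all genes. Their log2 changes at 1 mM ran from 0.14 to 2.24. All 3 libraries of 1 mM lay above vehicle for ttk, mad2l1, bub3 and ube2c, an order that 9.66% of all genes had. They overlapped vehicle for cdc20 and the securin gene pttg1 (log2 1.22, SE 0.73), which was named after its values were seen. The checkpoint kinase gene ttk (ENSDARG00000041361), also known as Mps1, was measured at 0.438, 0.676 and 0.847 CPM in vehicle, 3.09, 2.21 and 3.52 CPM at 1 mM and 0.987, 0.861 and 1.56 CPM at 10 mM. Its 3 groups did not overlap. The kinase gene rose at 1 mM (log2 2.16, SE 0.36, edgeR adjusted p = 0.0162) and fell from there to 10 mM (log2 -1.38, SE 0.34, adjusted p = 0.0144). For bub3 (ENSDARG00000075883), whose product brings checkpoint kinases to kinetochores, the levels were 4.79, 4.24 and 3.88 CPM, then 5.34, 5.72 and 5.68 CPM, then 5.40, 4.50 and 6.39 CPM. The log2 changes of bub3 were 0.37 (SE 0.18) at 1 mM and 0.33 (SE 0.18) at 10 mM, with adjusted p of 0.467 and 0.253. Anaphase genes named after their values were seen were likewise without a call: cdc20, the activator of the anaphase promoting complex, had a log2 change of 0.14 (SE 0.65) at 1 mM, and the ubiquitin conjugating enzyme gene ube2c one of 0.86 (SE 0.45). The checkpoint gene mad2l1, named in the same way, had a log2 change of 2.24 (SE 0.55) at 1 mM with an adjusted p of 0.0869.

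The chromosomal passenger complex, which carries Aurora B to centromeres and then to the midzone, had 4 members in the table. For the kinase gene aurkb (ENSDARG00000037640) the levels were 1.1, 0.676 and 1.44 CPM in vehicle, 2.54, 2.63 and 4.41 CPM at 1 mM and 1.70, 1.56 and 0.909 CPM at 10 mM. All 3 libraries of 1 mM were above the other 6. The fall from 1 mM to 10 mM passed the test (log2 -1.19, SE 0.36, edgeR adjusted p = 0.0352), whereas the rise over vehicle had an adjusted p of 0.0671 (log2 1.57, SE 0.36), and the fall was lost in 8 of 19 alternatives, among them without 1 mM replicate 3 (log2 -0.87) and without any of the 10 mM libraries. For the borealin gene cdca8 (ENSDARG00000043137) the levels were 0.274, 0.260 and 0.349 CPM, then 0.794, 0.962 and 2.32 CPM, then 0.345, 0.485 and 0.974 CPM, with a log2 change of 2.19 (SE 0.56, adjusted p = 0.104) at 1 mM. In edgeR 0 of the 3 tested members of this complex were called at 1 mM, against 0.889% of all genes called higher. At an unadjusted p under 0.05 there were 2, and the share of all genes at that cutoff was not computed. DESeq2 called 2, where it called 392 of 15842 genes higher. The survivin gene birc5a had 2 to 30 counts per library and no order between the groups.

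In the inner kinetochore, the centromere-bound platform, the changes at 1 mM came from few counts. The summed level of the role was 4.87, 5.02 and 6.50 CPM in vehicle, 9.44, 11 and 20.7 CPM at 1 mM and 6.0, 6.19 and 8.28 CPM at 10 mM, so that 1 mM replicate 3 stood above the other 1 mM libraries. The count of members called at 1 mM was 0 of 10 in edgeR, against 0.889% of all genes called higher. At an unadjusted p under 0.05 there were 8, DESeq2 called 2, and the median log2 change was 1.78. Among the 10, cenph, cenpk, cenpl and cenpo passed the filter only by their 1 mM libraries, so they had to be high there to be tested. The gene cenpk (ENSDARG00000039616) stood at 0.110, 0 and 0.299 CPM in vehicle, 0.820, 0.821 and 2.86 CPM at 1 mM and 0, 0.269 and 0.0649 CPM at 10 mM. The highest library by far was 1 mM replicate 3, and vehicle and 10 mM overlapped. The fall from 1 mM to 10 mM passed the test for cenpk (log2 -3.71, SE 1.06, edgeR adjusted p = 0.0286), cenph (ENSDARG00000094892, log2 -2.61, SE 0.79, adjusted p = 0.0371) and cenpn (ENSDARG00000043640, log2 -2.14, SE 0.53, adjusted p = 0.0134). Each of these 3 calls was lost without 1 mM replicate 3, with log2 changes of -2.83, -1.69 and -1.59, and in some other fits that left out a library. In all, the call was lost in 4 of 18 alternatives for cenpk, 6 of 17 for cenph and 3 of 18 for cenpn. The falls of cenpk and cenph start from a 1 mM level that the filter required.

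Cenpk and Cenph belong to one subcomplex of the constitutive centromere network, and Cenpn reads the centromeric histone Cenpa. For cenpn the levels were 0.548, 0.676 and 0.498 CPM in vehicle, 1.03, 0.792 and 2.16 CPM at 1 mM and 0.345, 0.162 and 0.389 CPM at 10 mM, so that 10 mM lay below vehicle in each library, without passing the test (log2 -0.94, SE 0.53, adjusted p = 0.265).

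The inner kinetochore also held a gene that rose at 10 mM. For cenpp (ENSDARG00000044135), of the same centromere network, the levels were 1.53, 0.833 and 1.74 CPM in vehicle, 1.43, 2.72 and 2.57 CPM at 1 mM and 3.23, 2.21 and 3.63 CPM at 10 mM. Each 10 mM library was above vehicle, and 1 mM overlapped both. The log2 change was 1.14 (SE 0.34, edgeR adjusted p = 0.0379) at 10 mM and 0.70 (SE 0.35, adjusted p = 0.466) at 1 mM. The call at 10 mM was lost in 6 of 19 alternatives, with an adjusted p of at most 0.14. Among these were leaving out any of the vehicle libraries, 10 mM replicate 1 or 10 mM replicate 3. For cenps (ENSDARG00000070485), a histone-fold protein gene shared with the Fanconi anaemia pathway, all groups overlapped (0.904, 1.43 and 2.02 CPM, then 1.30, 1.41 and 3.17 CPM, then 0.814, 1.78 and 1.07 CPM).

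The outer kinetochore, which grips the microtubules, had 6 members, of which 3 rose at 1 mM, 1 rose at 10 mM and 3 fell from 1 mM to 10 mM. Over all genes these shares were 0.889%, 9.74% and 9.41%. The gene nuf2 (ENSDARG00000034624), of the microtubule-binding Ndc80 complex, was at 0.602, 0.755 and 0.498 CPM in vehicle, 2.83, 1.92 and 3.71 CPM at 1 mM and 0.839, 1.29 and 0.714 CPM at 10 mM. In each 1 mM library it was above the other 6. Nuf2 transcript rose at 1 mM (log2 2.18, SE 0.36, edgeR adjusted p = 0.0166) and fell from 1 mM to 10 mM (log2 -1.56, SE 0.35, adjusted p = 0.00835). Its partners in the Ndc80 complex, ndc80, spc24 and spc25, had log2 changes of 1.26, 1.64 and 2.43 at 1 mM without passing, and spc24 (ENSDARG00000093622) fell from 1 mM to 10 mM (log2 -1.61, SE 0.48, adjusted p = 0.0333), a call lost in 6 of 19 alternatives, among them without 1 mM replicate 3 (log2 -1.18).

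The gene mis12 (ENSDARG00000026454) encodes a subunit of the complex that links the inner kinetochore to Ndc80. Its level was 0.274, 0.208 and 0.598 CPM in vehicle, 1.38, 1.70 and 3.55 CPM at 1 mM and 0.691, 0.431 and 0.519 CPM at 10 mM, so that 1 mM stood clear of the rest and was highest in replicate 3. The rise at 1 mM (log2 2.60, SE 0.51, edgeR adjusted p = 0.0344) and the fall from 1 mM to 10 mM (log2 -2.0, SE 0.49, adjusted p = 0.013) were both lost without 1 mM replicate 3, with log2 2.08 and -1.47. In all, the rise was lost in 6 of 19 alternatives, among them without vehicle replicate 1 or 2. The fall was lost in 3 of 19, among them without 10 mM replicate 2. The kinetochore motor gene cenpe (ENSDARG00000063385) was at 1.2, 0.729 and 1.39 CPM in vehicle, 4.36, 2.32 and 4.82 CPM at 1 mM and 1.97, 2.53 and 2.99 CPM at 10 mM. Both doses were above vehicle in each library, and they overlapped each other. It rose at 1 mM (log2 1.79, SE 0.34, adjusted p = 0.0276) and at 10 mM (log2 1.16, SE 0.34, adjusted p = 0.0311), and the difference between the doses did not pass (log2 -0.62, SE 0.32, adjusted p = 0.209). At both doses the call was lost in some of the fits that left out 1 library, with an adjusted p of at most 0.149 at 1 mM and 0.124 at 10 mM.

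Condensin and chromosome structure was the role with the most calls. At 1 mM 8 of its 12 members rose, from 1 mM to 10 mM 10 fell, and 11 had their 3 libraries of 1 mM above the other 6. Over all genes these shares were 0.889%, 9.41% and 4.57%. Against vehicle, 10 mM gave 0 calls in edgeR, where 9.74% of all genes were called higher and 7.43% lower. At an unadjusted p under 0.05 there were 3, and DESeq2 called 0. The summed level of the role was 16.7, 17.9 and 23 CPM in vehicle, 76.0, 62.1 and 70.4 CPM at 1 mM and 22.7, 18.5 and 32.4 CPM at 10 mM. So 1 mM replicate 3 was not the highest 1 mM library here, unlike in the kinetochore, and 10 mM overlapped vehicle.

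**Figure D4:**
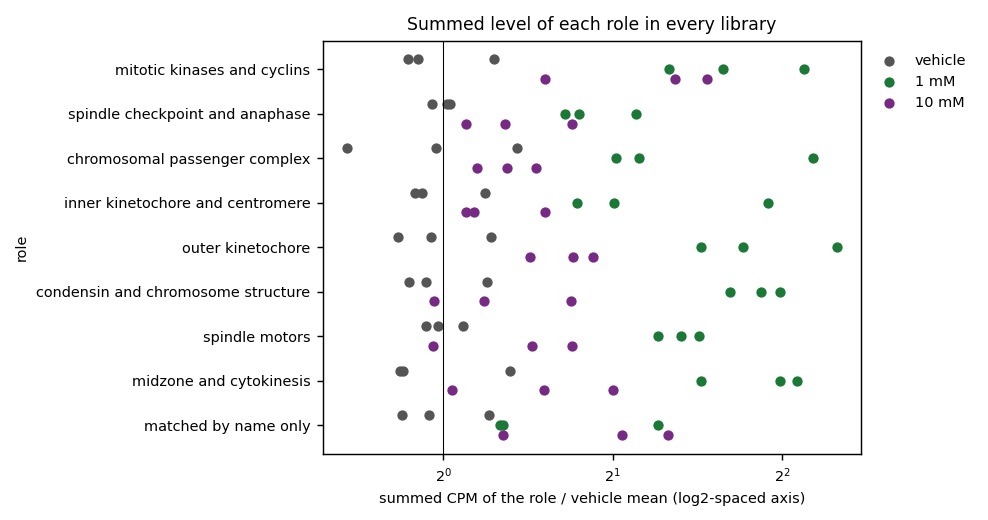
Summed CPM of the members of each role in each library (points), divided by the vehicle mean of the role, on an axis spaced by log2. For condensin and chromosome structure the 3 libraries of 1 mM lie close together and far from the other 6, while for the inner kinetochore 1 mM replicate 3 lies apart from the other 1 mM libraries. In the kinase and cyclin role nek2 moves the 10 mM points to the right.

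The ATPase subunits smc2 and smc4 form the core of both condensin complexes. For smc4 (ENSDARG00000038882) the levels were 2.30, 3.2 and 3.78 CPM in vehicle, 10.3, 10.9 and 8.79 CPM at 1 mM and 3.65, 2.91 and 4.61 CPM at 10 mM. Again 1 mM stood above the rest, and 10 mM overlapped vehicle. It rose 3.23-fold at 1 mM (log2 1.69, SE 0.23, edgeR adjusted p = 0.00548), and from there to 10 mM it fell (log2 -1.43, SE 0.23, adjusted p = 0.000958). For smc2 (ENSDARG00000017744) the levels were 1.48, 1.56 and 3.59 CPM, then 9.26, 7.64 and 7.24 CPM, then 2.42, 2.15 and 3.38 CPM. The same order held, with a rise of log2 1.86 (SE 0.32, adjusted p = 0.0186) at 1 mM and a fall of log2 -1.61 (SE 0.31, adjusted p = 0.00378) between the doses.

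Condensin I, which reaches chromosomes after the nuclear envelope breaks down, has the subunits ncapd2, ncapg and ncaph. For ncapg (ENSDARG00000070109) the levels were 1.31, 1.14 and 1.49 CPM in vehicle, 5.0, 5.01 and 4.47 CPM at 1 mM and 1.78, 2.13 and 2.53 CPM at 10 mM. None of the 3 groups overlapped, and 10 mM stood just above vehicle. It rose 3.66-fold at 1 mM (log2 1.87, SE 0.23, edgeR adjusted p = 0.00273), had log2 0.70 (SE 0.23, adjusted p = 0.0556) at 10 mM and fell from 1 mM to 10 mM (log2 -1.17, SE 0.22, adjusted p = 0.00304). For ncapd2 (ENSDARG00000005058) the levels were 1.31, 1.59 and 1.64 CPM, then 6.27, 5.32 and 7.17 CPM, then 1.80, 1.29 and 3.83 CPM. The highest 10 mM library was replicate 3, and the group overlapped vehicle. It rose at 1 mM (log2 2.04, SE 0.34, adjusted p = 0.0162) and fell between the doses (log2 -1.45, SE 0.33, adjusted p = 0.00881). The remaining subunit gene ncaph, named after its values were seen, had log2 2.37 (SE 0.60, adjusted p = 0.0956) at 1 mM.

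Condensin II, which acts in the nucleus from early prophase, has the subunits ncapd3, ncapg2 and ncaph2. For ncapd3 (ENSDARG00000034773) the levels were 1.15, 1.30 and 2.59 CPM in vehicle, 5.90, 5.21 and 6.32 CPM at 1 mM and 1.28, 1.08 and 1.30 CPM at 10 mM. The 1 mM libraries were far above the other 6, and the 10 mM libraries overlapped the lower part of vehicle. The rise at 1 mM (log2 1.78, SE 0.29, edgeR adjusted p = 0.0162) was followed by the fall with the smallest adjusted p of any member between the doses (log2 -2.25, SE 0.30, adjusted p = 0.000325). For ncapg2 (ENSDARG00000060023) the levels were 0.575, 1.04 and 1.74 CPM, then 5.21, 2.83 and 2.98 CPM, then 0.592, 1.13 and 0.974 CPM. It fell from 1 mM to 10 mM (log2 -2.04, SE 0.42, adjusted p = 0.00482), as did ncaph2 (ENSDARG00000033757, log2 -1.52, SE 0.39, adjusted p = 0.0175), and neither passed at 1 mM (adjusted p of 0.075 and 0.146). At 10 mM against vehicle the condensin II subunits had log2 changes of -0.47, -0.33 and -0.16, and the condensin I subunits ncapd2, ncapg and ncaph of 0.59, 0.70 and 0.94. No value of these 6 passed the test at 10 mM, and the difference between the complexes was seen in the data and not tested.

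The topoisomerase gene top2a (ENSDARG00000024488), whose enzyme untangles sister chromatids, stood at 3.53, 2.34 and 3.09 CPM in vehicle, 12.3, 9.59 and 9.58 CPM at 1 mM and 4.59, 2.64 and 6.95 CPM at 10 mM. The 1 mM libraries were the highest 3, and 10 mM overlapped vehicle. Its transcript rose at 1 mM (log2 1.81, SE 0.30, edgeR adjusted p = 0.0162) and fell between the doses (log2 -1.16, SE 0.29, adjusted p = 0.0148). The proliferation marker gene mki67 (ENSDARG00000091150), whose protein coats mitotic chromosomes, was at 2.41, 3.49 and 2.09 CPM, then 10.1, 7.81 and 9.68 CPM, then 3.90, 3.45 and 3.76 CPM. One 10 mM library lay just inside the vehicle range. The rise of mki67 at 1 mM was 3.45-fold (log2 1.79, SE 0.22, adjusted p = 0.00273), and from 1 mM to 10 mM it fell (log2 -1.31, SE 0.21, adjusted p = 0.00111).

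The helicase-like gene ercc6l (ENSDARG00000002479), also known as PICH, resolves DNA bridges in anaphase. Its level was 0.712, 1.01 and 0.896 CPM in vehicle, 6.14, 3.23 and 5.68 CPM at 1 mM and 0.691, 0.323 and 1.69 CPM at 10 mM. Levels at 1 mM were clear of the rest, and 10 mM spanned vehicle. It rose 5.71-fold at 1 mM (log2 2.51, SE 0.46, edgeR adjusted p = 0.0236) and fell between the doses by the same size (log2 -2.50, SE 0.46, adjusted p = 0.00267), with log2 0.01 (SE 0.48) at 10 mM against vehicle. The rise was lost without any of the vehicle libraries, with an adjusted p of at most 0.128. The last member of the role, the sororin gene cdca5, which protects sister cohesion, had log2 2.58 (SE 0.69, adjusted p = 0.118) at 1 mM. Since cdca5 passed the filter only by its 1 mM libraries, it had to be high there to be tested.

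Of the 6 spindle motor and spindle assembly genes, 1 rose at 1 mM and 2 fell from 1 mM to 10 mM, against 0.889% and 9.41% of all genes. For tpx2 (ENSDARG00000078654), an activator of Aurora A and a spindle assembly factor, the levels were 1.42, 1.12 and 0.797 CPM in vehicle, 3.04, 2.89 and 3.84 CPM at 1 mM and 1.97, 1.29 and 2.27 CPM at 10 mM. It rose at 1 mM (log2 1.55, SE 0.30, edgeR adjusted p = 0.0351), with all 3 libraries above the other 6, and the call was lost in 9 of 19 alternatives. Among these were leaving out any of the vehicle libraries, the replicate block and leaving out 1 mM replicate 3, where the log2 change was 1.41. For the chromokinesin gene kif4 (ENSDARG00000005462) the levels were 1.40, 1.2 and 2.51 CPM, then 4.29, 3.85 and 6.57 CPM, then 3.28, 1.08 and 2.01 CPM.

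Both kif4 and kif2c were highest in the 1 mM libraries and overlapped between vehicle and 10 mM. The fall of kif4 from 1 mM to 10 mM passed (log2 -1.2, SE 0.39, edgeR adjusted p = 0.0487), as did that of kif2c (ENSDARG00000076228, log2 -1.32, SE 0.40, adjusted p = 0.0377), a microtubule depolymerase that corrects faulty attachments. Without 1 mM replicate 3 neither passed (log2 -0.92 and -1.09), and in all the call was lost in 10 of 19 alternatives for kif4 and in 7 of 19 for kif2c. For the chromosome arm motor gene kif22 (ENSDARG00000102624) the levels were 1.64, 0.885 and 1.39 CPM, then 3.60, 3.76 and 1.84 CPM, then 1.63, 1.21 and 2.86 CPM. Here 1 mM replicate 3 was the lowest 1 mM library, and the log2 change of 1.23 (SE 0.38) had an adjusted p of 0.184. The Eg5 gene kif11, named after its values were seen, had log2 1.26 (SE 0.31, adjusted p = 0.0922) at 1 mM.

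In the midzone and cytokinesis role, 2 of 6 rose at 1 mM and 3 fell between the doses, against 0.889% and 9.41% of all genes. The scaffold gene of the contractile ring, anln (ENSDARG00000060917), was at 0.712, 1.30 and 1.2 CPM in vehicle, 4.95, 3.71 and 3.17 CPM at 1 mM and 2.10, 1.45 and 2.63 CPM at 10 mM. The 3 groups did not overlap, as for cdk1 and ttk. The anillin gene rose at 1 mM (log2 1.88, SE 0.32, edgeR adjusted p = 0.017), had log2 0.94 (SE 0.32, adjusted p = 0.0611) at 10 mM, and fell from 1 mM to 10 mM (log2 -0.94, SE 0.30, adjusted p = 0.0465). That fall was lost in 10 of the alternatives, with an adjusted p of at most 0.165.

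The microtubule bundling genes prc1a and prc1b order the midzone. For prc1b (ENSDARG00000005993) the levels were 0.383, 0.989 and 0.249 CPM in vehicle, 2.22, 1.98 and 3.68 CPM at 1 mM and 1.33, 0.700 and 1.17 CPM at 10 mM, with a rise of log2 2.27 (SE 0.48, edgeR adjusted p = 0.0481) at 1 mM. For prc1a (ENSDARG00000100918) they were 0.438, 0.0520 and 0.199 CPM, then 1.27, 0.396 and 1.65 CPM, then 0.247, 0.162 and 0.130 CPM, with a fall of log2 -2.58 (SE 0.75, adjusted p = 0.0311) between the doses. Since prc1a passed the filter only by its 1 mM libraries, it had to be high there to be tested. The 2 copies are paralogs, and the sources used here do not say how reads that map to both were counted. The centralspindlin motor gene kif23 (ENSDARG00000014943) fell from 1 mM to 10 mM too (log2 -1.43, SE 0.44, adjusted p = 0.0398), from 2.27, 2.35 and 3.87 CPM to 0.938, 0.485 and 1.75 CPM. Without 1 mM replicate 3 the log2 changes of prc1b, prc1a and kif23 were 1.95, -2.17 and -1.12, and none of these calls passed. Other fits lost them too, in all 11 of 19 alternatives for prc1b, 6 of 17 for prc1a and 7 of 19 for kif23. For prc1b and prc1a these included leaving out any of the 10 mM libraries.

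One member was matched by its name and is not a mitotic gene by its known main role. The gene aurkaip1 (ENSDARG00000074985), named in mammals for an interaction with Aurora A, encodes a protein of the small mitochondrial ribosomal subunit. Its level was 3.59, 4.58 and 3.21 CPM in vehicle, 4.79, 4.84 and 9.14 CPM at 1 mM and 7.90, 9.53 and 4.84 CPM at 10 mM. Both doses lay above vehicle in each library and overlapped each other. It rose at 10 mM (log2 0.97, SE 0.30, edgeR adjusted p = 0.0409), a call lost in 7 of 19 alternatives, with an adjusted p of at most 0.146. Among these were leaving out any of the vehicle libraries, 10 mM replicate 1 or 10 mM replicate 2.

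**Figure D5:**
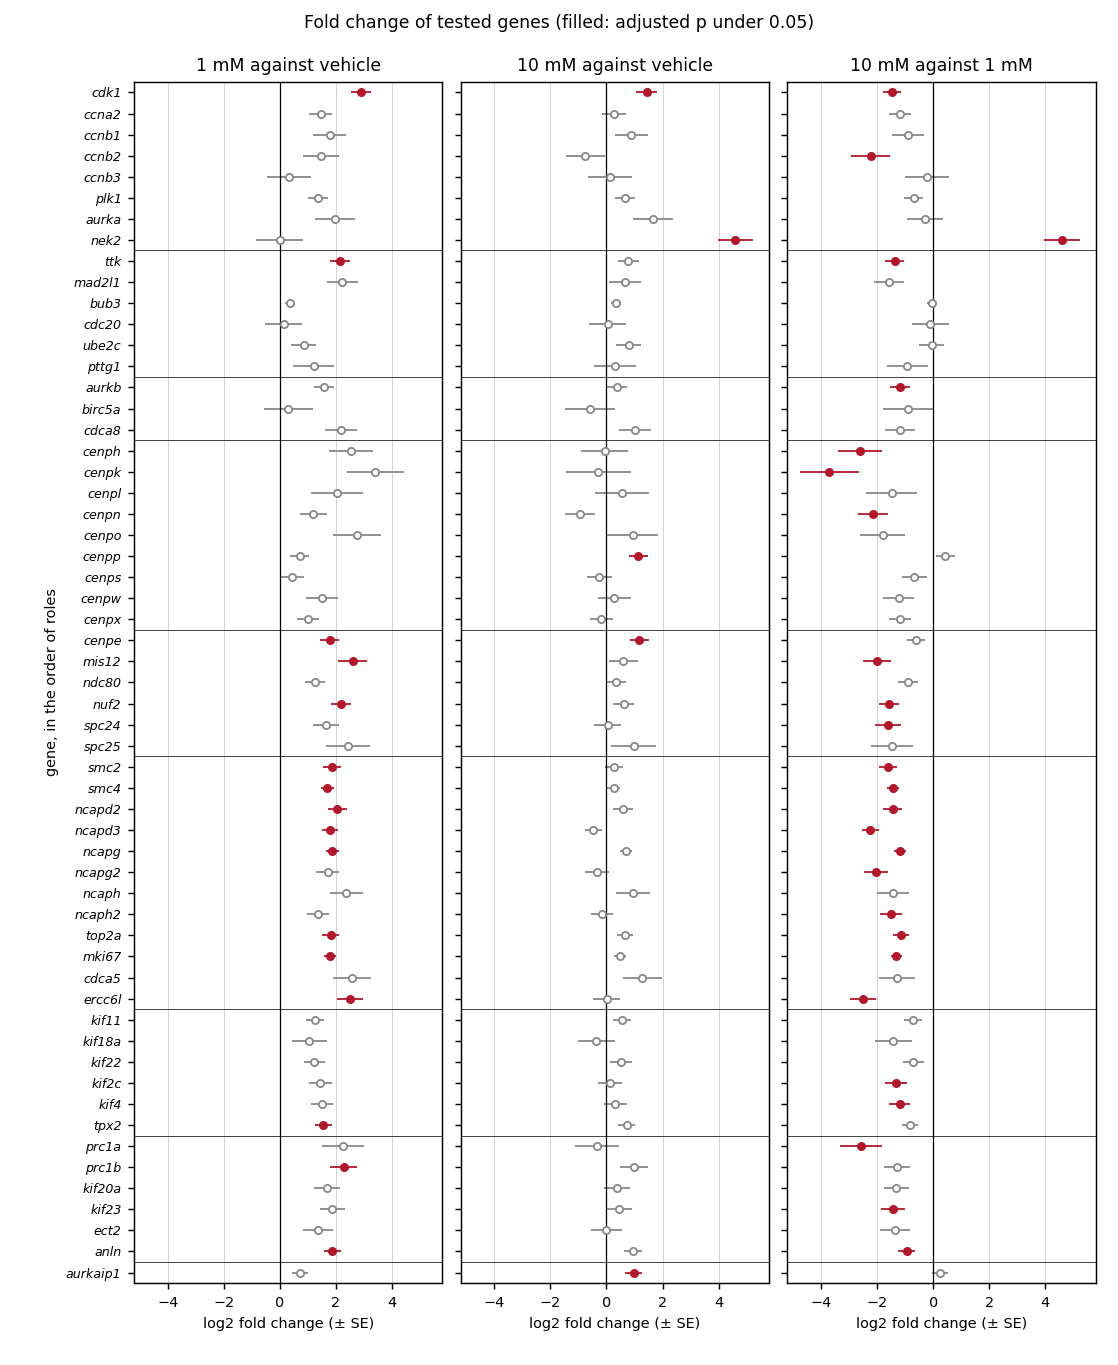
Log2 fold change with its SE for 57 of the tested members in the 3 comparisons, ordered by role, with filled points where the edgeR adjusted p was under 0.05. Filled points number 16 in the first panel, 5 in the second and 26 in the third, where nek2 is the filled point to the right of 0.

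Other cell cycle genes were read from the same fit. Of 19 tested genes of DNA replication and the chromatin of dividing cells, 13 rose at 1 mM, 1 rose at 10 mM and 17 fell from 1 mM to 10 mM, where 0.889%, 9.74% and 9.41% of all genes did. The median log2 changes were 1.39, -0.34 and -1.58. At 10 mM 0 of them were called lower than in vehicle in edgeR, against 7.43% of all genes. At an unadjusted p under 0.05 there were 6, and DESeq2 called 1. Their summed level was 149 to 187 CPM in vehicle, 318 to 359 CPM at 1 mM and 158 to 178 CPM at 10 mM. The helicase subunit gene mcm5, chosen after its values were seen, had 6.0, 5.96 and 7.32 CPM in vehicle, 16.6, 15.8 and 17.5 CPM at 1 mM and 5.31, 4.58 and 5.32 CPM at 10 mM, a rise of log2 1.37 (SE 0.15, edgeR adjusted p = 0.0019) and then a fall of log2 -1.71 (SE 0.15, adjusted p = 3.19e-05). The gene that rose at 10 mM was hmga1a, of a chromatin architectural protein (log2 0.40, SE 0.12, adjusted p = 0.0367).

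A list of 20 further spindle and midbody genes had 3 higher at 1 mM, 4 higher at 10 mM and 5 lower at 10 mM than at 1 mM, against the same 0.889%, 9.74% and 9.41% of all genes, with medians of 1.59, 0.54 and -0.68. At 10 mM against vehicle the smallest p-values in it belonged to fam83d, a spindle protein gene (log2 2.33, SE 0.56, edgeR adjusted p = 0.0116), the minus-end motor gene kifc1 (log2 1.23, SE 0.32, adjusted p = 0.0172) and bod1, a chromosome biorientation gene (log2 0.68, SE 0.18, adjusted p = 0.0205). Of 21 tested genes of centrosomes and spindle poles, 1 rose at 1 mM and 9 fell from 1 mM to 10 mM, against 0.889% and 9.41% of all genes. Besides nek2, 4 NIMA-related kinase genes were tested, and at 10 mM 1 of them was called, nek1. It fell (log2 -0.95, SE 0.20, edgeR adjusted p = 0.00597), where 7.43% of all genes were called lower. Only 50% of that list matched a row.

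Among 22 tested genes of the transcription complexes that switch the mitotic genes on and off, 1 rose at 1 mM, 1 fell at 10 mM, and between the doses 5 fell and 1 rose. Over all genes these shares were 0.889%, 7.43%, 9.41% and 9.39%. The gene that rose between the doses, singled out with its values in view, was nfya, of an NF-Y subunit (log2 0.59, SE 0.19, edgeR adjusted p = 0.0467). The forkhead factor gene foxm1, chosen after its values were seen, was at 0.383, 0.390 and 1.17 CPM in vehicle, 1.61, 1.84 and 1.59 CPM at 1 mM and 0.395, 0.0808 and 0.292 CPM at 10 mM. The fall between the doses passed (log2 -2.69, SE 0.59, edgeR adjusted p = 0.00704), while the change at 1 mM did not (log2 1.36, SE 0.54, adjusted p = 0.336). At 10 mM the gene that fell was nfyc, a subunit of the CCAAT-binding factor NF-Y (log2 -0.56, SE 0.12, adjusted p = 0.00597).

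Of 13 tested switches of mitotic entry and exit, 1 rose and 3 fell at 10 mM, where 9.74% of all genes rose and 7.43% fell. The fallen genes were mastl, the Greatwall kinase that shields Cdk1 substrates from phosphatase (log2 -0.96, SE 0.26, edgeR adjusted p = 0.0241), ppp2r2d, a subunit of that phosphatase (log2 -0.67, SE 0.18, adjusted p = 0.0226), and fzr1b, a Cdh1 gene of the anaphase promoting complex (log2 -0.61, SE 0.17, adjusted p = 0.024). The Cdk1 inhibitory kinase gene wee1, chosen after its values were seen, rose at both doses, by log2 1.14 (SE 0.23, adjusted p = 0.0356) at 1 mM and 0.77 (SE 0.23, adjusted p = 0.0326) at 10 mM. Of 14 subunits and partners of the anaphase promoting complex 2 fell at 10 mM, anapc2 (log2 -1.23, SE 0.37, adjusted p = 0.0367) and anapc4 (log2 -0.62, SE 0.20, adjusted p = 0.0498), against the same 7.43% of all genes.

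Cohesin holds sister chromatids together until anaphase, and 2 of its 12 tested genes fell at 10 mM, the core subunit gene smc3 (log2 -0.57, SE 0.13, edgeR adjusted p = 0.00988) and stag2a (log2 -0.41, SE 0.12, adjusted p = 0.0392), against 7.43% of all genes, with 66.7% of that list matched. At 1 mM 1 of the 12 rose, against 0.889% of all genes. Singled out with its values in view, it was the cohesin acetyltransferase gene esco2 (log2 1.77, SE 0.32, edgeR adjusted p = 0.0232). Of 11 tested G1 cyclin and kinase genes 2 rose at 1 mM, against 0.889% of all genes. Both were chosen after their values were seen, ccne2 (log2 1.47, SE 0.31, edgeR adjusted p = 0.044) and cdk2 (log2 1.51, SE 0.28, adjusted p = 0.0257). From 1 mM to 10 mM 2 of the 11 fell, against 9.41% of all genes. Of 5 tested cyclin-dependent kinase inhibitor genes 0 were called at 10 mM in edgeR, where 9.74% of all genes were called higher and 7.43% lower. At an unadjusted p under 0.05 there was 1, and DESeq2 called 1 higher. Of 11 tested immediate early and growth arrest genes 8 rose and 1 fell at 10 mM, against 9.74% and 7.43% of all genes, led by junba (log2 3.36, SE 0.37, adjusted p = 7.24e-05), ddit4 (log2 4.40, SE 0.49, adjusted p = 8.29e-05) and gadd45aa (log2 2.48, SE 0.31, adjusted p = 0.000192).

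Markers of cell types that divide in larvae were set beside these values. Hematopoietic progenitor markers summed to 13 to 15 CPM in vehicle, 13.7 to 15 CPM at 1 mM and 11.2 to 14.5 CPM at 10 mM, with 4 of 6 tested and no marker at 0. Erythrocyte markers summed to 538 to 660, 643 to 1289 and 624 to 765 CPM, with hbbe3 at 0. Of 8 tested, 1 (hbae3, chosen after its values were seen) was higher at 1 mM, against 0.889% of all genes. Lymphocyte markers summed to 0.520 to 1.89, 1.93 to 2.25 and 0.942 to 1.46 CPM, with 2 of 9 tested and pax5 at 0. Germ cell markers summed to 0.598 to 0.904, 0.952 to 1.24 and 0.700 to 1.21 CPM, with 1 of 7 tested and ddx4, piwil1 and nanos3 at 0. The lymphocyte and germ cell sums at 1 mM lay above vehicle without overlap, as the mitotic sum did. The erythrocyte sum, the hepatocyte sum and that of each lineage in the next paragraph overlapped vehicle, though their highest 1 mM library was above it. Of these, all but the erythrocyte sum and the stellate cell and fibroblast sum also reached below the lowest vehicle library at 1 mM. The hematopoietic progenitor sum at 1 mM stayed within the vehicle range. The part of any cell type in the result was not tested.

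Other lineages of the liver and its neighbours were read in the same way. Macrophage and neutrophil markers summed to 51.6 to 59.1 CPM in vehicle, 47.3 to 91.7 CPM at 1 mM and 55.8 to 67.1 CPM at 10 mM. Of 9 tested, 1 was called higher at 10 mM, marco (log2 0.74, SE 0.13, edgeR adjusted p = 0.00169), against 9.74% of all genes. The list went the other way, with a median log2 change of -0.15 at 10 mM. In edgeR 2 of its markers were lower at an unadjusted p under 0.05, and 0 were called lower, against 7.43% of all genes. Stellate cell and fibroblast markers summed to 53.9 to 68.2, 60.7 to 89.1 and 58.1 to 132 CPM. Here 1 of 7 tested rose at 10 mM, pdgfrb (log2 0.70, SE 0.22, adjusted p = 0.0439), against the same 9.74% of all genes. Biliary markers summed to 2280 to 2561, 2083 to 2898 and 2473 to 2627 CPM. Endothelial markers, of which 75% matched, summed to 206 to 215, 163 to 240 and 204 to 206 CPM. Exocrine pancreas markers summed to 4995 to 10839, 3826 to 11474 and 5887 to 12266 CPM, and intestine markers to 61.0 to 81.4, 38.1 to 92.3 and 67.4 to 97.9 CPM, with fabp6 at 0. Of 4 tested intestine markers 1 was higher at 10 mM, apoa4a (log2 2.34, SE 0.24, adjusted p = 4.33e-05), against 9.74% of all genes.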

How the data were processed

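Poly A RNA from the livers was sequenced in 9 libraries, grouped by the treatment label. Per the submitters' processing notes, the authors used HISAT2 and featureCounts with genome build GRCz11. The sources used here do not give versions, annotation, strand setting or multi-mapping. The authors deposited raw counts per gene. Of the counts from 1 to 20, 75.2 to 82.9% were even, so a count may often be a read and not a fragment. Depth was 29993109 to 41300673 counts, and the standard errors give the precision.

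In edgeR 4.0.16 (R 4.3.3), filterByExpr kept genes (count minimum 10, total minimum 15), and all 9 TMM-scaled libraries entered 1 fit with group means. The 3 pairs of groups were compared by two-sided quasi-likelihood tests, p-values adjusted by Benjamini-Hochberg over 16766 genes, threshold 0.05. An SE is the log2 change over the root of F. CPM were computed here on TMM-scaled totals. The pipeline was tested on simulated data. No 2 libraries of a group were identical or differed by less than sampling noise.

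The members and lists were chosen with earlier results of these data known. Named are all members past the threshold, the 2 highest of each role, the 3 smallest p per comparison, and in each list the 3 smallest p among those called at 10 mM. Alternatives were DESeq2 1.42.0, its size factors, other filters, 6 libraries per fit, a replicate block, halved counts, a minimum log2 change of 1, removal of mitochondrial and the 20 most abundant genes, and removal of each library. Leaving out 1 mM replicate 3 and 10 mM replicate 3 together was chosen after seeing the data. Sequences, gene positions and isoforms were not analysed here, and 1 member that enters the counts is not reported here by name or drawn by gene.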

Additional observations from a re-analysis of the deposited data

How the results depend on the processing

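No log2 change that passed turned its direction under any alternative, and no member was called lower against vehicle at either dose under any of the 19. Members called higher at 1 mM, 16 in the report, numbered 35 in DESeq2, 32 without a count filter, and 4 to 15 when a library was left out. Members called higher at 10 mM, 5 in the report, numbered 2 to 7 when a library was left out and 2 without 1 mM replicate 3 and 10 mM replicate 3 together. Members lower at 10 mM than at 1 mM, 26 in the report, numbered 12 to 24 when a library was left out, and those higher, 1 in the report, numbered 2 without 1 mM replicate 3 and 10 mM replicate 3 together. Over all genes, those higher at 1 mM numbered 149, 392 in DESeq2, 418 without a filter and 19 to 177 when a library was left out. The cause of these shifts was not tested. Of the calls named, 1 of 5 at 10 mM, 4 of 16 at 1 mM and 10 of 27 between the doses held under all alternatives. Same-numbered replicates did not deviate together (9 pairs, correlation -0.11 to 0.06), and with a replicate block 15 members were higher at 1 mM, 4 higher at 10 mM, and 24 lower and 1 higher at 10 mM than at 1 mM. Counts of 0 to 176 per member in a vehicle library limit what can be seen.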

Other observations

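The deposited table held 16 further rows of these gene families that the name pattern did not match, 5 because their names are in capitals and 11 because the table gives them no name and an Ensembl name table does. Of the 15 tested, 8 were higher at 1 mM, 2 were higher at 10 mM and 6 were lower at 10 mM than at 1 mM (edgeR adjusted p under 0.05). Over all genes these shares were 0.889%, 9.74% and 9.41%. The median log2 changes of the 15 were 1.92, 0.78 and -1.26. In 11 of the 15 all 3 libraries of 1 mM stood above the other 6, against 4.57% of all genes. These genes were chosen after their values were seen.

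The anillin paralog anln2 (ENSDARG00000088130) was at 2.27, 1.67 and 1.59 CPM in vehicle, 8.31, 6.48 and 6.76 CPM at 1 mM and 1.97, 2.26 and 2.04 CPM at 10 mM. It rose at 1 mM (log2 1.96, SE 0.21, edgeR adjusted p = 0.0019) and fell between the doses (log2 -1.78, SE 0.21, adjusted p = 0.000179). The kinetochore scaffold gene knl1 (ENSDARG00000070239) rose at 1 mM (log2 2.21, SE 0.39, adjusted p = 0.0224) and fell from there to 10 mM (log2 -1.44, SE 0.37, adjusted p = 0.018). The separase gene espl1 (ENSDARG00000075354), whose enzyme cuts cohesin at anaphase, did so too (log2 1.47, SE 0.30, adjusted p = 0.0407, then log2 -1.26, SE 0.30, adjusted p = 0.0107). The checkpoint kinase gene bub1 (ENSDARG00000077029) rose at 1 mM (log2 1.86, SE 0.39, adjusted p = 0.0426).

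The genes higher at 10 mM were the spindle motor gene kif15 (ENSDARG00000012073, log2 1.25, SE 0.36, edgeR adjusted p = 0.0301) and the row named CENPV (ENSDARG00000092285, log2 1.41, SE 0.23, adjusted p = 0.00118). Both also rose at 1 mM, kif15 by more (log2 1.92, SE 0.36, adjusted p = 0.0274) and CENPV by log2 1.09 (SE 0.23, adjusted p = 0.0491). For CENPV the levels were 2.11, 1.30 and 1.52 CPM in vehicle, 3.07, 3.42 and 4.03 CPM at 1 mM and 4.39, 4.06 and 4.67 CPM at 10 mM. Its 3 groups did not overlap, and unlike most of these genes it was highest at 10 mM, where the difference from 1 mM did not pass (log2 0.32, SE 0.22, adjusted p = 0.369).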
